A study of Homo sapiens with 6 samples.

Results

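The 33 genes described here code for the cell's response to low oxygen and for the conversion of glucose to lactate. They were taken by symbol from a fixed list of hypoxia and glycolysis genes, all 33 were among the 25330 symbols of the count table, and all 33 were among the 14199 genes that passed the low-count filter. By role they comprise 2 glucose transporters, 15 glycolytic enzymes, 3 regulators of glycolytic flux, 4 genes of the oxygen-sensing HIF axis and 9 other targets of HIF. The 3 RNASEH2A KO libraries (titled RN1) and the 3 control libraries (titled CTRV2) were poly-A selected, strand-specific RNA-seq libraries of MDA-MB-231, an established triple-negative breast cancer line. RNASEH2A codes for the catalytic subunit of RNase H2, which removes ribonucleotides from DNA. Each library came from a separate passage, none was treated, all carried the same batch label, and both groups grew in 10% serum at 37 °C with 5% CO2, per the labels' protocols. The labels do not spell out CTRV2, do not say whether RN1 is a clone or a pool, and give no oxygen level or cell density. P-values therefore measure the spread between passages.

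HIF is a transcription factor made of an oxygen-labile alpha subunit, coded by HIF1A or EPAS1, and a stable beta subunit. When oxygen is plentiful, prolyl hydroxylases of the EGLN family mark the alpha subunit for destruction through the VHL ubiquitin ligase. When oxygen falls, HIF accumulates, binds promoters and enhancers, and raises genes for glucose uptake, glycolysis, acid handling, collagen maturation and blood vessel growth. Cancer cells often run glycolysis at a high rate even with oxygen present.

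Library totals ran from 25419877 to 31596286 counts. Levels are given as CPM, the count scaled to a common library size after TMM correction for composition, and fold changes are on the log2 scale. RNASEH2A itself had 7, 8 and 16 counts in KO libraries and 10, 6 and 15 in control libraries. These few counts do not check the genotype labels, and 40.8% of its exonic bases are shared with other genes on the same strand, so every direction below rests on the labels. Of the cell line's markers, VIM, CD44, KRT8, KRT18, KRT7 and AXL were well counted in both groups and ESR1 was at 0 in all 6 libraries. Of 5 leukocyte markers 3 were in the table, with PTPRC at 0 in KO libraries, and they summed to 2.44 to 4.11 CPM in KO libraries and 4.18 to 4.95 CPM in control libraries. The 5 endothelial markers summed to 0.575 to 0.963 CPM in KO libraries and 0.952 to 0.982 CPM in control libraries. Of 5 fibroblast markers 4 were in the table, and they summed to 45.1 to 92.4 CPM in KO libraries and 48.7 to 52.0 CPM in control libraries, with PDGFRA at 0. The 3 erythroid markers had at most 2 counts in any library, and ERBB2, PGR, CDH1, EPCAM and ESR1 together summed to 126 to 149 CPM in KO libraries and 126 to 139.9 CPM in control libraries. In bulk RNA, fewer cells with a transcript and less of it per cell cannot be told apart.

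Of the 33 genes, ADM and PFKL rose in KO cells, VEGFA, HK2 and GPI fell, and 28 did not pass the test (edgeR quasi-likelihood, adjusted p under 0.05 over all 14199 tested genes). The same test called 12.1% of all tested genes, 5.88% as higher and 6.22% as lower, so the share of these genes called was near that of all genes. Their median log2 fold change, KO over control, was -0.03, against 0.00 for all tested genes. Libraries of the groups did not overlap for 9 of the 33 genes, 4 higher and 5 lower in KO cells, where 33.5% of all tested genes did not overlap.

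ADM codes for the precursor of adrenomedullin, a secreted peptide that widens blood vessels and promotes their growth. It lies on chromosome 11 from 10304680 to 10307397 on the plus strand (GENCODE 29, GRCh38). It had 55.5, 67.5 and 76.7 CPM in KO replicates 1, 2 and 3, against 33.3, 31.8 and 30.0 CPM in control replicates 1, 2 and 3. The lowest KO library was above the highest control library. The log2 fold change was 1.07 ± 0.12 SE (edgeR adjusted p = 0.000783), a 2.10-fold higher level. The call held in all 16 alternative fits, with a log2 fold change between 0.96 and 1.22.

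PFKL codes for the liver-type isoform of phosphofructokinase, the committing and rate-controlling enzyme of glycolysis. It lies on chromosome 21 from 44300051 to 44327376 on the plus strand. It had 356, 308 and 329 CPM in KO libraries, against 259, 250.4 and 248 CPM in control libraries. Every KO library was above every control library. The log2 fold change was 0.39 ± 0.07 SE (edgeR adjusted p = 0.00669). The 20 nearest tested genes on the chromosome had a median log2 fold change of 0.14, and with that median subtracted PFKL was at 0.25 (edgeR adjusted p = 0.0510). Without control replicate 3 its edgeR adjusted p was 0.0511.

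VEGFA codes for the main growth factor of blood vessels and is a classical HIF target. It lies on chromosome 6 from 43770184 to 43786487 on the plus strand. It had 132, 175 and 166 CPM in KO libraries, against 202, 238 and 239 CPM in control libraries. All KO libraries were below all control libraries. The log2 fold change was -0.52 ± 0.11 SE (edgeR adjusted p = 0.0147). It missed the threshold without control replicate 2 (edgeR adjusted p = 0.0725), control replicate 3 (edgeR adjusted p = 0.0790) or KO replicate 3 (edgeR adjusted p = 0.0613).

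HK2 codes for the inducible hexokinase that tumours often rely on to trap glucose, and GPI for the isomerase of the next step. HK2 lies on chromosome 2 from 74833981 to 74893359 and GPI on chromosome 19 from 34359480 to 34402413, both on the plus strand. HK2 had 91.8, 81.8 and 88.6 CPM in KO libraries, against 118, 101 and 101 CPM in control libraries. GPI had 388, 365 and 353 CPM in KO libraries, against 476, 423 and 428 CPM in control libraries. For both genes the groups did not overlap, and control replicate 1 was the highest library. HK2 fell by 0.29 ± 0.08 SE (edgeR adjusted p = 0.0494), which is at the threshold: it passed in 8 of 16 alternative fits. Leaving out any single library other than KO replicate 1 gave HK2 an edgeR adjusted p between 0.105 and 0.149. GPI fell by 0.26 ± 0.07 SE (edgeR adjusted p = 0.0335) and passed in 11 of 16. Leaving out any single library other than KO replicate 1 gave GPI an edgeR adjusted p between 0.0746 and 0.152. Overlap with another gene on the same strand covers 12.1% of the exonic bases of GPI.

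**Figure D1:**
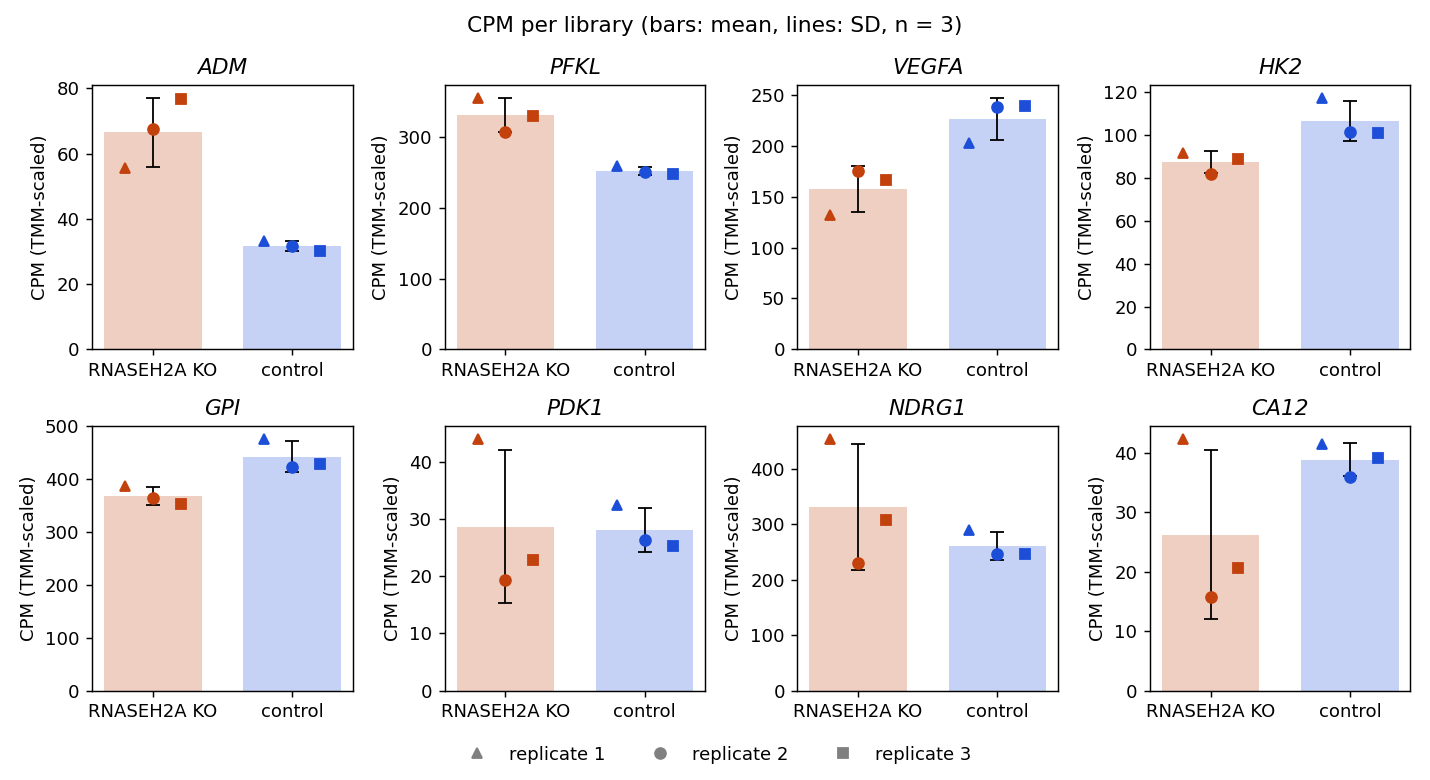
CPM per library (TMM-scaled, linear axis from 0) of 8 genes, with RNASEH2A KO to the left of control; bars are means, lines SD, n = 3 each, and symbols mark the replicate number. ADM and PFKL are higher and VEGFA, HK2 and GPI lower in every KO library, while for PDK1, NDRG1 and CA12 KO replicate 1 stands above the other KO libraries.

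The core letters of the HIF binding site are ACGTG or GCGTG, which are shown in capitals (on either strand, so also CACGT or CACGC) in the 250 bases before the RefSeq start of 4 genes (GRCh38.p14, gene strand, 5′ to 3′). ADM, PFKL and HK2 are shown because they passed the test and have a RefSeq start near the GENCODE start, and CA9 because a HIF site beside its start is well known. The stretches are chr11:10304823-10305072 for ADM, chr21:44299803-44300052 for PFKL, chr2:74833877-74834126 for HK2 and chr9:35673678-35673927 for CA9, all on the plus strand. In GENCODE 29 the gene start of ADM (10304680) lies before its whole stretch, which is thus inside the gene in that annotation. The gene starts of HK2 (74833981) and CA9 (35673856) lie inside their stretches, and that of PFKL (44300051) at the end of its stretch.
ADM: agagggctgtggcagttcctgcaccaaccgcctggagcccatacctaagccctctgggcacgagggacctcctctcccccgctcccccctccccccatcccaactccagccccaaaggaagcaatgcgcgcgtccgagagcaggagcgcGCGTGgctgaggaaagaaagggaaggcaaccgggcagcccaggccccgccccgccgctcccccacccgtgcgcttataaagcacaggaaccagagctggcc
PFKL: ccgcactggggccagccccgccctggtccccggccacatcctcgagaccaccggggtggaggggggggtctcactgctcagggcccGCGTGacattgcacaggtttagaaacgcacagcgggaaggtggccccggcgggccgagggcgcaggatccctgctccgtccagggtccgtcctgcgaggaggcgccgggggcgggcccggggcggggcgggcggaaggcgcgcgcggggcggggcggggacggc
HK2: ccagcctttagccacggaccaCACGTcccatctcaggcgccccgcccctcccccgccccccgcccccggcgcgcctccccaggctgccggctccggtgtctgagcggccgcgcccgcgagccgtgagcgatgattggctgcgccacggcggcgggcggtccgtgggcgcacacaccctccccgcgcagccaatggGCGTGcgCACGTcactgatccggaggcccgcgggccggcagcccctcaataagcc
CA9: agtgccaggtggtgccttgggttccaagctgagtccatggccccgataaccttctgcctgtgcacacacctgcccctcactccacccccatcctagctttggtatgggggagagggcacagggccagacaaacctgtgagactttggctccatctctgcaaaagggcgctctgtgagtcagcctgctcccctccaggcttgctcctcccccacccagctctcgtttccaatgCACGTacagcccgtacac
In the table of RefSeq promoters used here, 29 of the 33 genes (all but SLC2A3, VEGFA, NDRG1 and BNIP3L) were matched to at least 1 start window of 300 bases, 250 before and 50 after the start. Several genes have more than 1 start, which gave 46 windows, some of them overlapping. At least 1 of the motifs was in 33 of the 46 windows, or 71.7%, against 60.1% of the 15955 windows of tested genes and 48.4% of all 35116 windows. ACGTG alone was in 18 of the 46 windows, or 39.1%, against 25.2% of the windows of tested genes. ADM and PFKL held GCGTG beginning 101 and 164 bases before the start, CA9 held the reverse-strand form of ACGTG beginning 18 bases before it, and the HK2 stretch shown held 3 matches. A second RefSeq start of HK2 had 6 matches in its window. GPI, which also passed, held ACGTG or its reverse beginning 162 bases before a RefSeq start that lies 5512 bases from its GENCODE start and is not shown. A match of letters is a description and not a site.

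The glucose transporters did not pass the edgeR test, 0 of 2 also at an unadjusted p under 0.05 and with DESeq2. SLC2A1, or GLUT1, the basal transporter of most cancer cells, had 1047, 1206 and 1153 CPM in KO libraries, against 1136, 1162 and 1134 CPM in control libraries. The KO values spanned the control values (log2 fold change -0.01 ± 0.06 SE, edgeR adjusted p = 0.933). SLC2A3, the high-affinity GLUT3, had 54.6, 41.5 and 50.8 CPM in KO libraries, against 54.4, 57.1 and 58.1 CPM in control libraries (-0.21 ± 0.10 SE, edgeR adjusted p = 0.221). Per kilobase of exon, SLC2A1 stood at 285 CPM per kb in KO cells and 287 in control cells, and SLC2A3 at 12.5 and 14.4.

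Among the 15 glycolytic enzymes, PFKL rose, HK2 and GPI fell and 12 did not pass. Their log2 fold changes ran from -0.29 to 0.39 with a median of -0.03, and 9 of the 15 were negative. At the hexokinase step HK1, the constitutive isoform, had 357, 343 and 350.0 CPM in KO libraries, against 335, 339.9 and 340.5 CPM in control libraries. The groups did not overlap, but the difference was small (0.05 ± 0.05 SE, edgeR adjusted p = 0.608). PFKP, the platelet-type phosphofructokinase, averaged 479 ± 24.8 CPM in KO cells and 486 ± 24.5 CPM in control cells (SD, n = 3 each; edgeR adjusted p = 0.856). TPI1, which interconverts the triose phosphates, was at -0.05 ± 0.05 SE, PGK1, the first enzyme of the pathway to yield ATP, at 0.04 ± 0.09 SE, and PGAM1, the mutase that follows it, at -0.03 ± 0.06 SE.

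The lower end of the pathway held the most abundant members. ENO1, the main enolase, stood at 1230 CPM per kb in KO cells and 1307 in control cells, and PKM, the pyruvate kinase of tumours, at 777 and 878. LDHA, which turns pyruvate into lactate, followed at 507 CPM per kb in KO cells and 544 in control cells. PKM had 2704, 2496 and 2524 CPM in KO libraries, against 2902, 2879 and 2939.8 CPM in control libraries. All 3 KO libraries lay below the controls and the change fell short of the threshold (-0.18 ± 0.05 SE, edgeR adjusted p = 0.0560). The counts do not separate the spliced forms of PKM. LDHA had 1798, 1353 and 1367 CPM in KO libraries, against 1802, 1511 and 1536 CPM in control libraries. Replicate 1 was the highest of its group in both groups (-0.10 ± 0.11 SE, edgeR adjusted p = 0.606). ENO2, the enolase first known from neurons, had 129, 92.9 and 102 CPM in KO libraries, against 99.9, 93.8 and 85.6 CPM in control libraries (0.21 ± 0.12 SE, edgeR adjusted p = 0.265).

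The counts of ALDOA, ALDOC and LDHB were far lower. ALDOA, the main aldolase, had 327, 229 and 215 counts in KO libraries, against 254, 271 and 191 in control libraries. Of its exonic bases 68.0% are shared with exons of another gene on the same strand in GENCODE 29, as are 62.9% of those of LDHB, so the level of each is uncertain. LDHB, the lactate dehydrogenase subunit that favours pyruvate, had 14.5, 13.6 and 14.2 CPM in KO libraries, against 16.8, 17.4 and 17.3 CPM in control libraries. Its groups did not overlap (-0.28 ± 0.09 SE, edgeR adjusted p = 0.0739). ALDOC, the brain aldolase, stayed between 2.48 and 4.67 CPM in KO libraries and between 2.63 and 3.69 CPM in control libraries. Several glycolytic genes also have near-identical processed pseudogenes, and the sources used here do not say how reads shared with them were counted.

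None of the 3 flux regulators passed with edgeR, at an unadjusted p under 0.05 or with DESeq2. PFKFB3 and PFKFB4 make and break the fructose bisphosphate signal that drives phosphofructokinase, and PDK1 is a kinase that inactivates the pyruvate dehydrogenase complex. PDK1 had 44.0, 19.3 and 22.7 CPM in KO libraries, against 32.4, 26.3 and 25.4 CPM in control libraries. KO replicate 1 lay above all controls and the other KO libraries below them. The log2 fold change was 0.04 ± 0.26 SE (edgeR adjusted p = 0.946), and its SD was 13.4 CPM in KO cells and 3.82 CPM in control cells. PFKFB4 had 37.4, 16.9 and 21.6 CPM in KO libraries, against 26.6, 21.2 and 21.0 CPM in control libraries. Again KO replicate 1 was above all controls and KO replicate 2 below them, while KO replicate 3 was among them (0.14 ± 0.25 SE, edgeR adjusted p = 0.752). PFKFB3 had 84.6, 62.3 and 65.9 CPM in KO libraries, against 85.7, 77.2 and 71.1 CPM in control libraries (-0.14 ± 0.12 SE, edgeR adjusted p = 0.499).

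Nor did the 4 genes of the oxygen-sensing axis pass with edgeR or DESeq2, and 1 of them, HIF1A, had an unadjusted p under 0.05. HIF1A had 412, 349 and 359 CPM in KO libraries, against 414, 412 and 431 CPM in control libraries (-0.17 ± 0.07 SE, edgeR adjusted p = 0.170). EPAS1, which codes for the related alpha subunit HIF-2alpha, had 148, 109 and 129 CPM in KO libraries, against 121, 106 and 112 CPM in control libraries (0.19 ± 0.11 SE, edgeR adjusted p = 0.282). Per kilobase of exon HIF1A was at 87.7 CPM per kb in KO cells and 98.4 in control cells, and EPAS1 at 24.9 and 21.9. HIF protein is set mainly by its breakdown, which transcript counts do not measure. EGLN1, the main oxygen sensor, had 40.5, 32.0 and 29.2 CPM in KO libraries, against 41.2, 40.2 and 40.1 CPM in control libraries, so that KO replicates 2 and 3 were below and KO replicate 1 within the control range. Its log2 fold change was -0.25 ± 0.12 SE (edgeR adjusted p = 0.187), beside a median of -0.21 in its 20 nearest tested genes on chromosome 1. EGLN3, the hydroxylase most induced by HIF, had 14.1, 8.63 and 8.42 CPM in KO libraries, against 15.7, 12.2 and 11.7 CPM in control libraries (-0.34 ± 0.21 SE, edgeR adjusted p = 0.318).

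Of the 9 other HIF targets ADM rose, VEGFA fell and 7 did not pass. Without the low-count filter 4 of the 9 passed, where 10.1% of all genes were called. Their log2 fold changes ran from -0.84, that of the sparsely counted CA9, to 1.07, with a median of 0.21. This range was wider than that of the 15 enzymes, whose median was -0.03. With the median of the nearest tested genes subtracted from each gene, the medians were 0.0288 for these targets and -0.0755 for the enzymes. Without KO replicate 1 they were -0.0824 and -0.1071. The difference between the medians of these roles was not tested. CA9, the membrane carbonic anhydrase used as a hypoxia marker, had 75, 1 and 10 counts in KO libraries, against 86, 40 and 17 in control libraries. Both replicates numbered 1 were highest, and the spread within groups exceeded the difference between them (log2 fold change -0.84 ± 0.87 SE, edgeR adjusted p = 0.581). Exons of genes on the opposite strand cover 39.7% of the exonic bases of CA9 and 37.6% of those of ANKRD37, and the strand setting of the counting is not known. CA12, a related carbonic anhydrase, had 42.3, 15.7 and 20.6 CPM in KO libraries, against 41.4, 35.9 and 39.1 CPM in control libraries. KO replicate 1 was just above the controls and the other KO libraries below all of them (-0.56 ± 0.29 SE, edgeR adjusted p = 0.244).

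NDRG1, a stress-induced gene linked to metastasis suppression, had 455, 230.1 and 308 CPM in KO libraries, against 290.2, 247 and 246 CPM in control libraries (0.34 ± 0.20 SE, edgeR adjusted p = 0.300). BNIP3L, or NIX, a receptor for removal of mitochondria, had 179.8, 99.1 and 109 CPM in KO libraries, against 131, 96.8 and 102 CPM in control libraries (0.23 ± 0.21 SE, edgeR adjusted p = 0.507). In both genes KO replicate 1 was the highest of all 6 libraries. P4HA1 and P4HA2 code for the catalytic subunits of collagen prolyl hydroxylase. P4HA1 had 119, 84.3 and 85.4 CPM in KO libraries, against 85.3, 78.0 and 76.0 CPM in control libraries (0.27 ± 0.13 SE, edgeR adjusted p = 0.199). P4HA2 had 100.01, 90.4 and 94.8 CPM in KO libraries, against 76.3, 87.4 and 83.5 CPM in control libraries, with no overlap (0.21 ± 0.08 SE, edgeR adjusted p = 0.106). ANKRD37, a small ankyrin repeat gene induced by hypoxia, stayed between 2.78 and 4.45 CPM in KO libraries and between 3.41 and 4.56 CPM in control libraries.

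**Figure D2:**
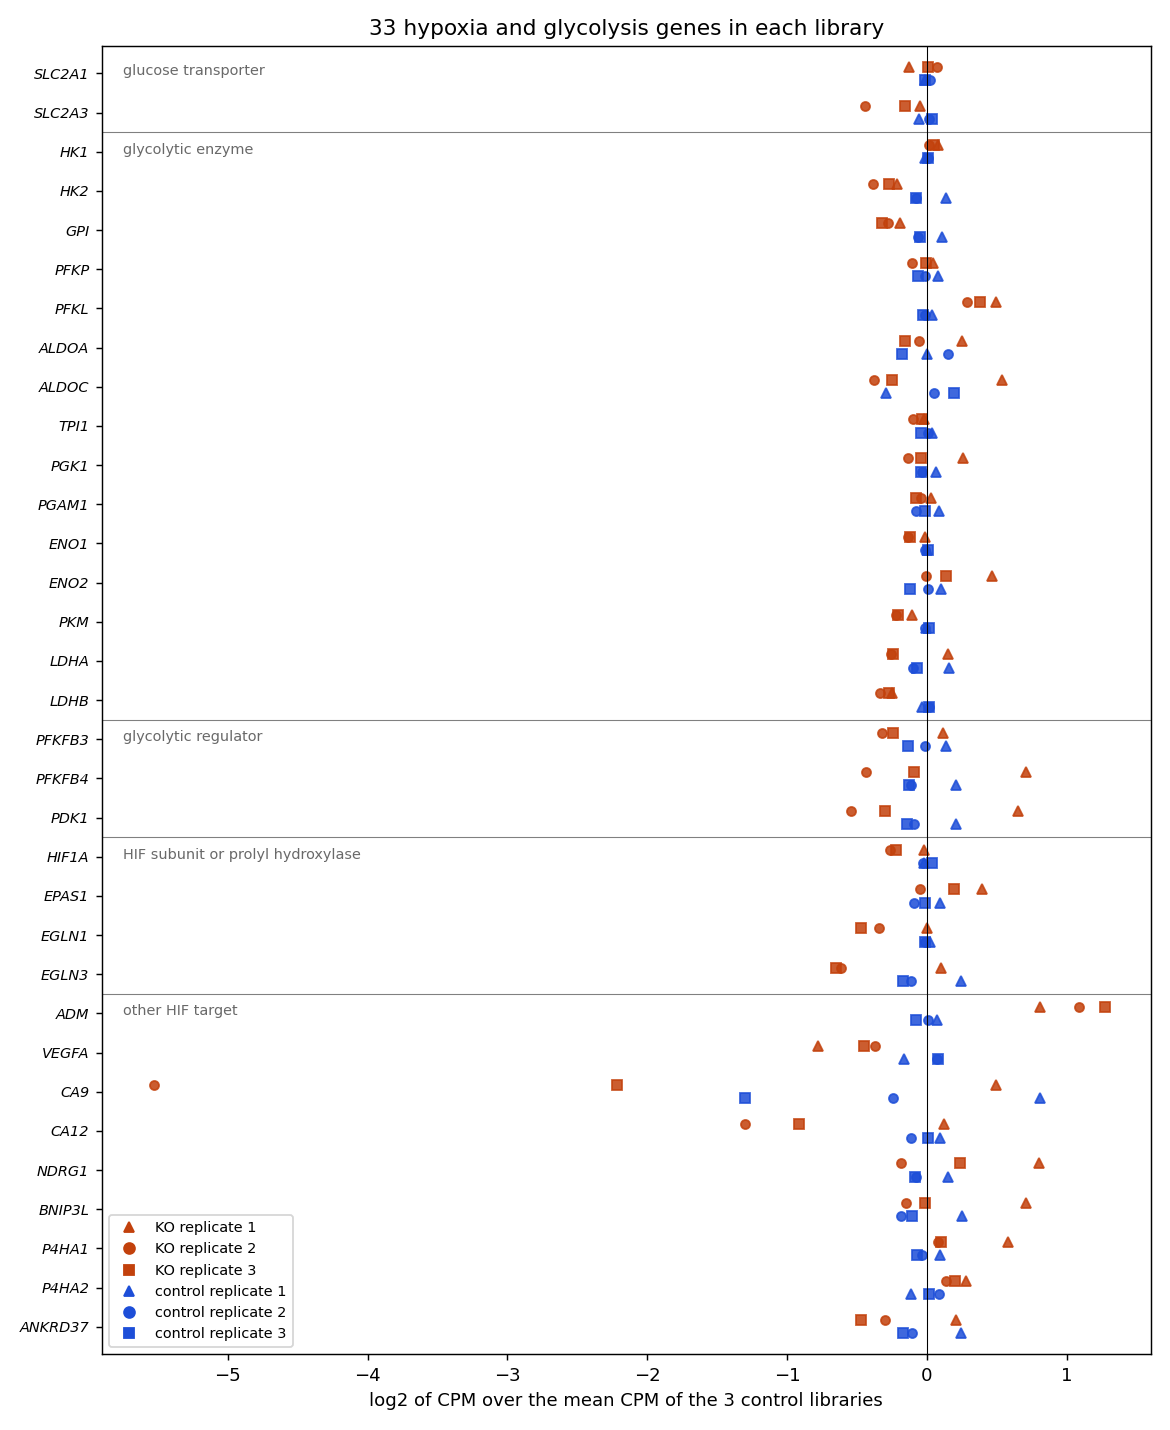
Each of the 33 genes in each library, as log2 of its CPM over the mean of the 3 control libraries, with KO symbols above control symbols and the genes grouped by role. KO replicate 1 (triangle) is the KO library farthest to the right for 30 of the 33 genes, and CA9 has the widest spread.

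Within groups, the replicates numbered 1 stood apart. KO replicate 1 was the highest KO library for 30 of the 33 genes, against 40.8% of all tested genes, and ADM, VEGFA and SLC2A1 were the exceptions. Control replicate 1 was the highest control library for 22 of the 33, against 39.0% of all tested genes. In 21 of the 33 genes both held, against 23.3% of all tested genes. The median over the 9 other HIF targets of log2 CPM over the control mean was 0.49, -0.18 and -0.02 in KO replicates 1, 2 and 3, against 0.10, -0.08 and -0.08 in control replicates 1, 2 and 3. For the 3 flux regulators it was 0.65, -0.44 and -0.24 in KO libraries, against 0.21, -0.09 and -0.13 in control libraries. For the 15 enzymes it was 0.04, -0.13 and -0.12 in KO libraries, against 0.04, -0.01 and -0.04 in control libraries. KO replicate 1 was thus above KO replicates 2 and 3 in all of these roles. For the 4 genes of the HIF axis the same median was 0.05, -0.30 and -0.35 in KO libraries. For the 2 glucose transporters it was -0.09, -0.18 and -0.07, so there KO replicate 1 was below KO replicate 3.

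The proliferation marker MKI67 varied between libraries too, with 18228, 9588 and 13313 counts in KO libraries, against 18145, 11894 and 9388 in control libraries. Its highest library in each group was also the replicate numbered 1. The fibroblast markers COL1A2 and PDGFRB had 56.0 and 27.2 CPM in KO replicate 1, above all other libraries. COL1A1 had 9.13 CPM there, above the other KO libraries but below all control libraries (9.48 to 10.9 CPM), and PDGFRA was at 0. The part of these in the values of the 33 genes was not tested.

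Without KO replicate 1 the picture of the 33 genes changed: 2 were higher and 15 lower in KO cells, and 16 did not pass (edgeR, 2 KO against 3 control libraries). The same fit called 23.8% of all tested genes, 11.3% as higher and 12.5% as lower. The median log2 fold change of the 33 genes was then -0.21, against -0.0024 for all tested genes in that fit. KO replicate 1 was the highest KO library for 30 of the 33 genes. Leaving it out had to lower the KO mean of those 30, so the shift downward was partly set by the library left out. The 2 higher genes were again ADM (1.18, edgeR adjusted p = 3.29e-06) and PFKL (0.34, edgeR adjusted p = 0.00097). VEGFA (-0.41), HK2 (-0.32) and GPI (-0.30) were lower as before. Those that joined them were CA9, CA12 (-1.10), EGLN3 (-0.63), PDK1 (-0.42), EGLN1 (-0.40), LDHB (-0.30), SLC2A3 (-0.29), PFKFB3 (-0.28), LDHA (-0.25), HIF1A (-0.24), PKM (-0.21) and ENO1 (-0.13). The fitted -3.06 of CA9 rests on 1 and 10 counts in the KO libraries. By role, 6 of the 15 enzymes, 2 of the 3 flux regulators, 3 of the 4 genes of the HIF axis and 3 of the 9 other HIF targets were lower. The median log2 fold change was then -0.11 for the enzymes and -0.08 for the other HIF targets, the second of which had the opposite sign with all libraries.

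Leaving out control replicate 1 as well, a choice made after these values were seen, called the same 17 genes in the same directions, where 30.4% of all tested genes were called. The median log2 fold change in that fit was -0.14 for the 33 genes and -0.11 for the enzymes. For the other HIF targets it was 0.06, so their sign without KO replicate 1 alone did not hold. Leaving out any other single library gave fewer calls. Without control replicate 1 the calls among the 33 numbered 3, where 7.31% of all tested genes were called, and without control replicate 2 they numbered 2, where 4.48% were called. Without KO replicate 2 they numbered 4, where 10.0% of all tested genes were called, and without KO replicate 3 they numbered 2, where 3.61% were called. ADM was called in each of these fits, and NDRG1 was among the 4 without KO replicate 2 (0.55, edgeR adjusted p = 0.0445). Without control replicate 3 ADM was the only call among the 33, where 3.79% of all tested genes were called, 1.92% as higher and 1.87% as lower.

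**Figure D3:**
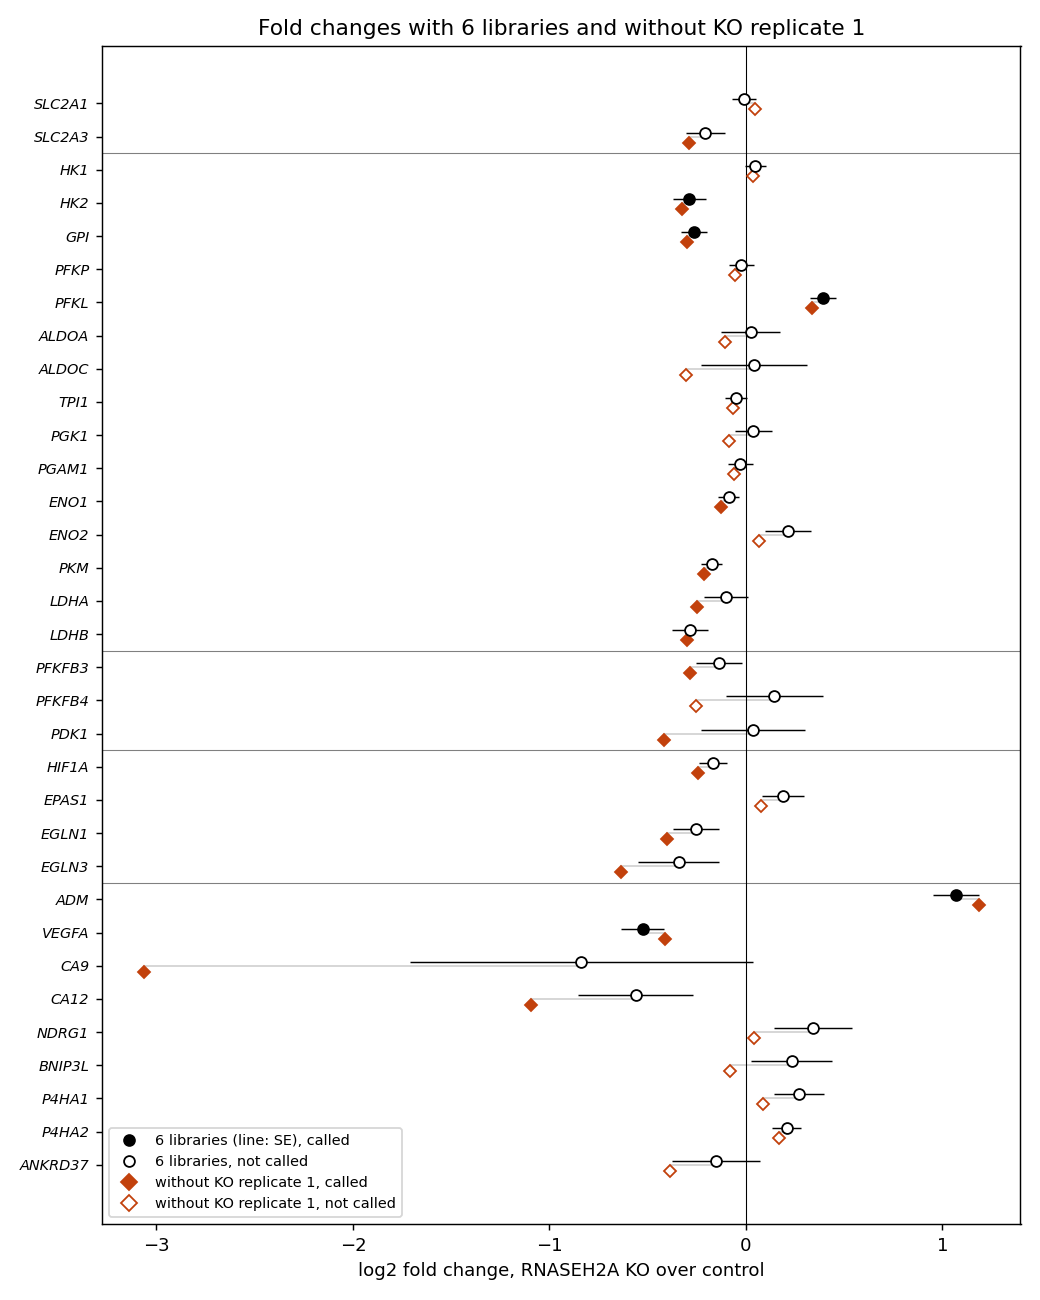
Log2 fold changes, RNASEH2A KO over control, of the 33 genes with all 6 libraries (circles, lines are SE) and without KO replicate 1 (diamonds); filled symbols passed the edgeR test. Filled symbols number 5 with all libraries and 17 without KO replicate 1, and most diamonds lie to the left of their circles, with ADM on the far right in both. KO replicate 1 was the highest KO library for 30 of the 33 genes, so leaving it out moves these to the left.

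Ratios of family members within a library do not depend on the scaling of the library. For 11 such pairs the log2 ratio was compared between groups by an exact two-sided permutation test, which cannot give a p below 0.1 with 3 libraries against 3. The groups did not overlap for 4 of the 11 pairs, each with a p of 0.1 and 0.275 after Benjamini-Hochberg adjustment over the 11 pairs. Taken as single genes, 33.5% of all tested genes did not overlap. HK2 counts were 0.257, 0.239 and 0.253 of HK1 counts in KO libraries, against 0.351, 0.298 and 0.297 in control libraries. PFKP counts were 1.41, 1.47 and 1.47 times PFKL counts in KO libraries, against 1.98, 1.92 and 1.88 times in control libraries. The KO libraries thus held relatively more of the liver-type isoform. EPAS1 counts were 0.360, 0.313 and 0.359 of HIF1A counts in KO libraries, against 0.292, 0.258 and 0.260 in control libraries. ENO2 counts were 0.0414, 0.0324 and 0.0354 of ENO1 counts in KO libraries, against 0.0317, 0.0301 and 0.0271 in control libraries. The other 7 pairs overlapped, with p from 0.3 to 0.8.

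**Figure D4:**
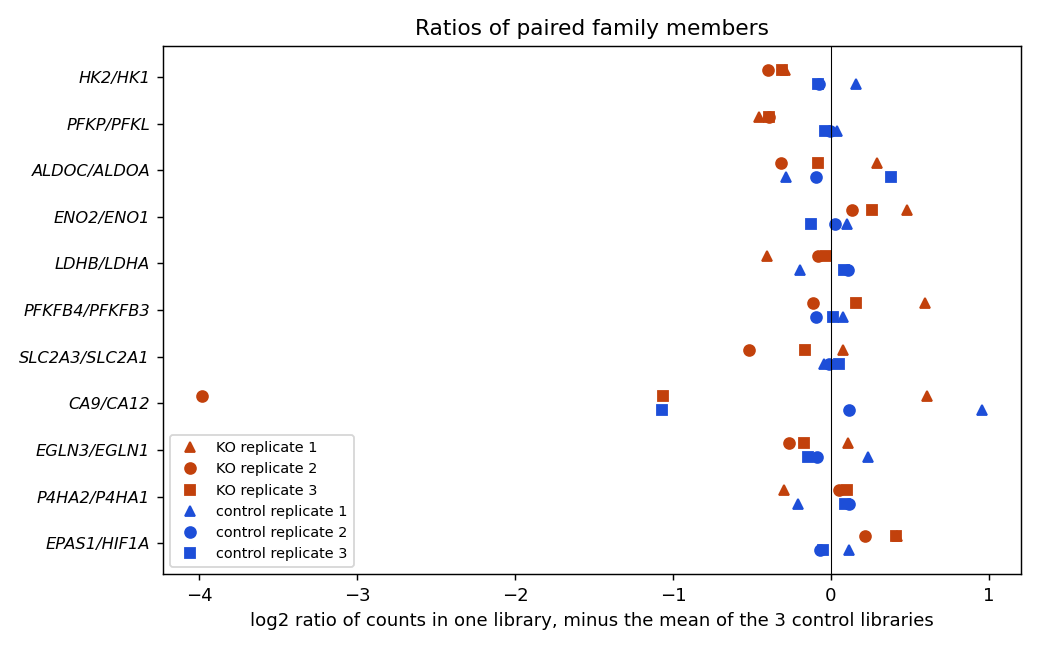
Log2 ratio of counts of 11 pairs of related genes in each library, minus the mean of the 3 control libraries, with KO symbols above control symbols. KO and control libraries do not overlap for HK2/HK1, PFKP/PFKL, ENO2/ENO1 and EPAS1/HIF1A, and CA9/CA12 spreads most.

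Around these 33 genes, 8 lists of related genes with 150 tested members held 9 that rose and 9 that fell. That share was close to the 12.1% called among all tested genes. Of 11 glycolysis genes outside the 33, 0 passed with edgeR or DESeq2 and 6 had an unadjusted p under 0.05. The share of all tested genes with an unadjusted p under 0.05 is not given here. Whether this count and those above at that cutoff exceed that share therefore cannot be said. The smallest p of the 11 was that of LDHD, a dehydrogenase of D-lactate (0.84 ± 0.32 SE, edgeR adjusted p = 0.118). GAPDH, the glyceraldehyde phosphate dehydrogenase of the pathway, at 1353 ± 18.1 CPM in KO cells and 1479 ± 18.8 CPM in control cells, had lower values in all KO libraries and did not pass (-0.13 ± 0.05 SE, edgeR adjusted p = 0.120). It was named after its values were seen, as were BNIP3 and PLOD2 below. Of 48 other hypoxia-induced genes 2 passed, both higher in KO cells. These were STC1, the secreted hormone stanniocalcin (0.41 ± 0.10 SE, edgeR adjusted p = 0.0334), and VLDLR, a lipoprotein receptor (0.47 ± 0.13 SE, edgeR adjusted p = 0.0400). KO replicate 1 was the highest KO library for 32 of these 48 genes, against 40.8% of all tested genes. Without KO replicate 1, 5 of the 48 were higher and 5 lower, where 11.3% of all tested genes were higher and 12.5% lower. BNIP3, a mitophagy receptor related to BNIP3L (-0.64), and PLOD2, a lysyl hydroxylase of collagen (-0.63), were among the lower. Of 19 genes of HIF regulation SIAH2, a ubiquitin ligase that acts on the EGLN proteins, fell by 0.30 ± 0.09 SE (edgeR adjusted p = 0.0481).

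Ligands and receptors of the adrenomedullin and VEGF systems held 2 that rose and 2 that fell among 9 tested. Of all tested genes 5.88% were called as higher and 6.22% as lower. RAMP1, an accessory protein of the receptors for this peptide family, had 17.7, 13.2 and 14.5 CPM in KO libraries, against 25.7, 25.1 and 23.5 CPM in control libraries (-0.71 ± 0.12 SE, edgeR adjusted p = 0.00585). ACKR3, a scavenging receptor that also takes up adrenomedullin, had 12.7, 7.69 and 9.06 CPM in KO libraries, against 5.87, 5.23 and 5.32 CPM in control libraries (0.85 ± 0.19 SE, edgeR adjusted p = 0.0195). PGF, placental growth factor, a relative of VEGFA, had 8.41, 5.32 and 6.42 CPM in KO libraries, against 12.6, 11.3 and 11.3 CPM in control libraries (-0.80 ± 0.17 SE, edgeR adjusted p = 0.0145). NRP2, a co-receptor of VEGF family ligands, had 37.1, 31.4 and 36.7 CPM in KO libraries, against 24.2, 21.5 and 20.7 CPM in control libraries (0.66 ± 0.10 SE, edgeR adjusted p = 0.00363). The groups did not overlap for RAMP1, ACKR3, PGF and NRP2, as for 33.5% of all tested genes. They were named because they passed the test on the same values, so the lack of overlap adds no further evidence. Of the same list, CALCRL had 2 to 6 counts per library, RAMP2 and VEGFD at most 3, and FLT1 and FLT4 0. These receptors and ligands were too sparsely counted to be tested.

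Of 19 genes of pyruvate and lactate handling 1 rose and 4 fell, where 5.88% of all tested genes were called as higher and 6.22% as lower. SLC16A7, the high-affinity monocarboxylate transporter, had 1.49, 1.22 and 1.57 CPM in KO libraries, against 15.2, 14.2 and 16.7 CPM in control libraries. All KO libraries were far below the controls (-3.42 ± 0.15 SE, edgeR adjusted p = 1.71e-05). EMB, or embigin, a partner protein of such transporters, fell by 2.48 ± 0.22 SE (edgeR adjusted p = 0.000336). MPC1, a subunit of the mitochondrial pyruvate carrier, fell by 0.48 ± 0.10 SE, and PC, pyruvate carboxylase, by 0.38 ± 0.08 SE, while PDK2, a relative of PDK1, rose by 0.34 ± 0.09 SE (edgeR adjusted p = 0.0125, 0.0150 and 0.0363). In the branches that lead off glycolysis, GFPT1, the entry enzyme of the hexosamine pathway, rose (0.26 ± 0.07 SE, edgeR adjusted p = 0.0431), and PYGB, a glycogen phosphorylase, fell (-0.23 ± 0.05 SE, edgeR adjusted p = 0.0224). Of 13 other glucose transporters and glucose-responsive genes SLC2A11 rose (0.82 ± 0.21 SE), and of 10 pH regulators the bicarbonate transporter genes SLC4A8 and SLC4A7 changed by 0.90 ± 0.22 SE and -0.34 ± 0.09 SE.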

How the data were processed

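Strand-specific poly-A RNA-seq libraries of 3 RNASEH2A KO and 3 control passages were compared. Raw read counts per gene symbol were deposited by the authors, and the submitters' processing notes name FastQC and STAR version 2 with build GRCh38. The authors also deposited log2 CPM values for 15066 genes, used here only as an alternative. The counting tool, its strand setting and the annotation could not be found in the labels. The 33 genes and the lists around them were chosen with earlier results of these data known.

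Library totals were 25419877 to 31596286 counts. Where no read was counted, the level may still lie as high as 0.0949 to 0.118 CPM (3 counts per library), from counting error alone. All 14199 genes kept by filterByExpr were fitted with edgeR 4.0.16 (R 4.3.3, TMM, quasi-likelihood F test, two-sided), with Benjamini-Hochberg adjustment over all of them, after a check on simulated data. Genes are called at an adjusted p under 0.05. Alternatives used DESeq2 1.42.0, limma 3.58.1, other scalings and filters, a replicate block, subtraction of the median of 10 tested genes on each side, and leaving out libraries. Values were named for all 33 genes and, per list, for up to 4 called genes with the smallest p. Some list results are not reported here. Positions and exon lengths came from GENCODE 29, promoters from RefSeq GRCh38.p14.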

Additional observations from a re-analysis of the deposited data

How the results depend on the processing

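Over all alternatives and the 33 genes, 451 values kept their direction and side of the threshold, 18 lost the call and 29 turned sign. Calls were gained in 32 cases, 2 of them with the sign turned, both PDK1. Deviations of same-numbered libraries correlated at 0.316, 0.139 and 0.0855. KO replicate 1 correlated at -0.183 and -0.180 with control replicates 2 and 3. KO replicates 2 and 3 correlated best with another number, but by small margins (0.141 and 0.0915). These values do not settle whether the replicate number marks a pairing, and the main fit did not use the replicate number. As a replicate block it called 9 of the 33 genes, 4 of the other HIF targets, 40 genes of the pathway lists and 3099 (21.8%) of all genes, against 5, 2, 18 and 1718 without it. Without the low-count filter 4 other HIF targets were called, and 10.1% of all genes. Subtracting the neighbours' median left 1041 of all genes. Leaving out single libraries gave 524 to 3430 calls among all genes, 1 to 17 among the 33, 0 to 7 among the enzymes, 1 to 4 among other HIF targets and 4 to 45 in the pathway lists. Without replicate 1 of both groups, chosen after seeing the data, these were 4312, 17, 7, 4 and 57. Over single left-out libraries the enzymes' median ran from -0.11 without KO replicate 1 to -0.0163 without KO replicate 2, and was -0.11 without replicate 1 of both groups. Over the same libraries the median of the other HIF targets ran from -0.0824 without KO replicate 1 to 0.25 without KO replicate 2. It was 0.06 without replicate 1 of both groups and 0.0288 with the neighbours' median subtracted. With ACGTG alone 18 windows matched in place of 33. Pairs of related genes without overlap numbered 4 with a pseudocount of 0.5 and 4 to 6 over single left-out libraries, where smaller groups overlap less easily.

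Signs turned only in genes not called with all libraries. SLC2A1 was at 0.0014 with plain library sizes and 0.0018 without the filter. After subtraction of the neighbours' median PFKP was at 0.0404, PFKFB3 at 0.0164 and ALDOA at -0.0924. On the deposited log2 CPM ALDOC was at -0.0125 and PDK1 at -0.0532, and PDK1 was at -0.0415 with limma-voom and -0.0382 with the replicate block. Over single left-out libraries SLC2A1 ran from -0.0494 to 0.0448, PFKP from -0.0551 to 0.0238, ALDOA from -0.1071 to 0.1078, ALDOC from -0.3053 to 0.2119 and PGK1 from -0.0869 to 0.1227. PGAM1 ran from -0.0655 to 0.0158, PFKFB4 from -0.2537 to 0.3702, PDK1 from -0.4166 to 0.2596 and BNIP3L from -0.0824 to 0.397. Without replicate 1 of both groups SLC2A1 was at 0.0378, ALDOA at -0.1095, ALDOC at -0.435, PGK1 at -0.0536, PFKFB4 at -0.1355 and PDK1 at -0.3001. The causes were not tested. CA9, ALDOC and ANKRD37 had at most 150 counts in any library, so depth limits what can be said of them.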
